A study of Homo sapiens with 4 samples.

Results

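In MDA-MB-231, an established human line of triple-negative breast cancer, 70 genes were picked by the size of their rise in RNA, at least 4-fold after RB-1. RB-1 is a code name for a compound that the title of the series calls a ribociclib derivative. The study compared cells kept with RB-1 for 24 h with cells kept with the solvent DMSO, with 2 libraries in each group and no dose in the labels. Both groups were the same unmodified line in DMEM with fetal bovine serum, and separate cultures are not stated, so a p-value measures a spread between libraries that may be purely technical. The 70 genes were chosen from the counts themselves. A gene entered if its counts per 1000000 of the library total (CPM) were 2 or more in both RB-1 libraries and if each RB-1 value was at least 4 times each DMSO value. Of the 20263 genes counted, 11534 reached 2 CPM in both RB-1 libraries, and 85 of these, or 0.737%, passed the fold in every pair. The rule then left out 15 genes by name, which were 4 readthrough genes whose symbols join a pair of genes (BLOC1S5-TXNDC5, ATP6V1G2-DDX39B, PTGES3L-AARSD1 and ZNF8-ERVK3-1) and IL1B, CXCL1, CXCL2, CXCL8, SAA1, SAA2, PTGS2, ICAM1, DDIT4, VEGFA and GDF15. Since the RB-1 and DMSO values selected the genes, these values are a description and carry no test. In bulk RNA a larger share of cells with a transcript and more of it per cell cannot be told apart.

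A transcript's level is set by how fast its gene is transcribed and how fast the RNA decays, and a set of genes picked by size of change alone need not share a pathway. Genes that are nearly silent can change by a large factor with few molecules, while abundant transcripts need many. Inflammatory genes, small Maf factors and targets of the integrated stress response, in which the factor ATF4 raises genes of amino acid supply, are known to respond quickly when cells are stressed. In sequencing libraries the recovery of a transcript can also depend on its length and on its share of G and C bases, which is why both were described here for every gene.

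The library totals ran from 34122874 to 37754168 counts. Vimentin (VIM), CD44, AXL and CAV1, which mark this mesenchymal line, summed to between 6278 and 6334 CPM in DMSO. In RB-1 they summed to between 7929 and 8387 CPM. They did not move together. By the means VIM, the largest part, was 1.53-fold and AXL 1.11-fold, but CD44 was 0.934-fold and CAV1 0.615-fold. CDH1, the epithelial cadherin that the line lacks, was at most 0.0586 CPM. It was 1 of 6 luminal and hormone receptor genes taken as lacking in the line, and the 6 summed to 80.5 to 98.9 CPM. ERBB2 was at 56.9 to 77.5 CPM, EPCAM at 8.29 to 14.4 and GATA3 at 2.36 to 19.0, and ESR1 and PGR were at most 1.54. The 4 leukocyte markers summed to at most 1.22 CPM and the 3 endothelial markers to at most 1.85 in any library. The 4 fibroblast markers summed to 5.25 to 7.79 CPM, nearly all of it COL1A1 at 5.19 to 7.51. CD3E, DCN and MYH7 were at 0 in all 4 libraries. The 70 genes together made up 321 and 257 CPM in DMSO replicates 1 and 2 and 2115 and 1708 CPM in RB-1 replicates 1 and 2.

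Most of the 70 genes had low levels in both groups beside other expressed genes. Their mean DMSO level ran from 0.0575 to 75.8 CPM around a median of 1.18, and their mean RB-1 level from 2.44 to 407 CPM around a median of 8.62. By comparison the medians of the 11534 genes were 32.9 CPM (DMSO) and 36.1 CPM (RB-1). In DMSO 32 of the 70 averaged under 1 CPM, against 86 of the 11534, and 10 had fewer than 30 counts over both DMSO libraries. The 86 include the 32. The rule builds in part of this contrast, since any of the 11534 genes under 1 CPM in DMSO was already over 2-fold higher in RB-1. In RB-1 38 of the 70 averaged under 10 CPM and 4 averaged over 100 CPM, namely G0S2, TMEM14C, SLC37A2 and MAFF. The ratio of the group means had a median of 7.0 and ran from 4.12 for FBXO36 to 239 for an unnamed readthrough gene, and the smallest of the 4 pairwise ratios had a median of 5.43. The groups cannot overlap in any of the 70, since the rule requires it. The RB-1 libraries lay within 1.5-fold of each other in 57 of the 70 genes. Of the other 13, 11 were higher in replicate 1 and 2 in replicate 2. Over all 70, RB-1 replicate 1 was the higher in 47 (67.1%), against 5234 (45.4%) of the 11534. Just inside the limit, the smallest pairwise ratio was 4.05 for EBI3, 4.03 for FBXO36, 4.02 for G0S2 and 4.0 for SLC22A18. Just outside it were SNHG32 at 3.92, CLDN7 at 3.90, KBTBD11 at 3.87 and MAP1LC3A at 3.87.

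**Figure D1:**
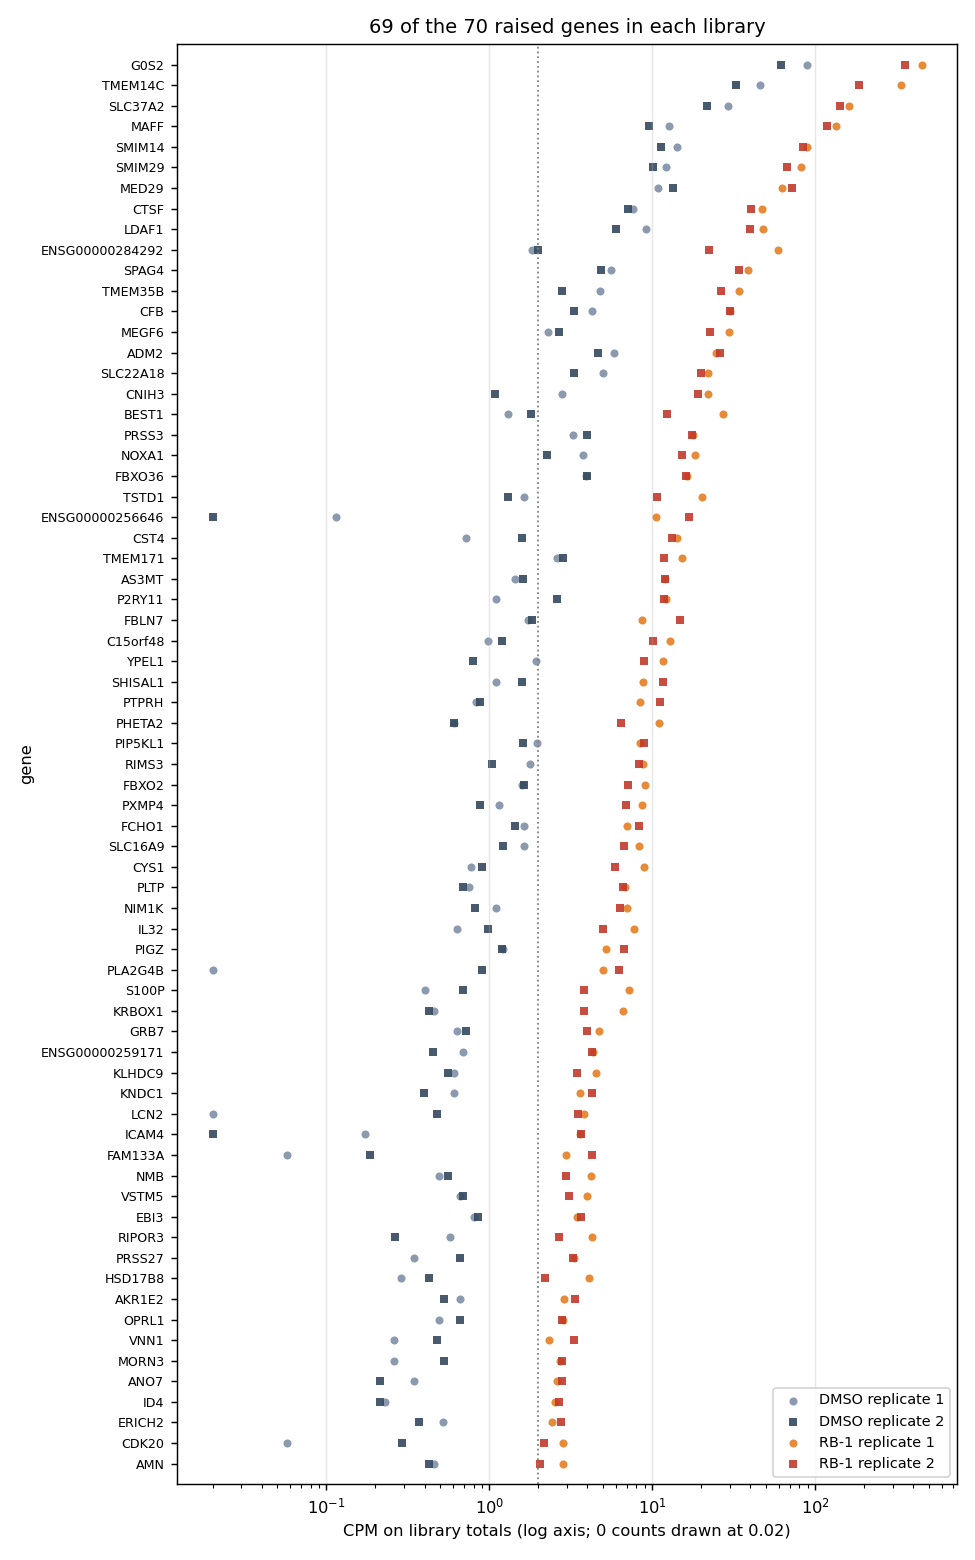
Level of 69 of the 70 genes in the 4 libraries, in CPM on the library totals (log axis), ordered by mean RB-1 level, with 1 point per library and a library at 0 counts drawn at 0.02. The dotted line is the minimum of 2 CPM. Both RB-1 points stand to the right of both DMSO points in every row by the rule, and most DMSO points lie left of 2 CPM.

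PHETA2 (ENSG00000177096) encodes an endosomal protein that binds the lipid phosphatase OCRL and takes part in traffic between endosomes and the Golgi. It measured 0.604 and 0.609 CPM in DMSO replicates 1 and 2 and 11.03 and 6.45 CPM in RB-1 replicates 1 and 2, a ratio of means of 14.4. These were 21 and 23 counts against 398 and 220, and no exon base of the gene is shared with another gene. The DMSO libraries were alike, and RB-1 replicate 1 was 1.71 times replicate 2. BEST1 (ENSG00000167995) encodes bestrophin 1, a calcium-activated chloride channel best known from the retinal pigment epithelium. Its level was 1.29 and 1.80 CPM in DMSO and 27.2 and 12.3 CPM in RB-1, 12.8-fold by the means. RB-1 replicate 1 was 2.21 times replicate 2, and the ratio was 7.97 without RB-1 replicate 1 and 17.6 without RB-1 replicate 2. On the opposite strand 14.2% of the BEST1 exon bases lie over FTH1, the ferritin heavy chain, at 730 and 841 CPM in DMSO and 1528 and 1292 CPM in RB-1. Whether the counting used strand is not known here, so reads of these genes cannot be told apart there.

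A group of 8 was placed by hand under inflammation and innate defence, taken broadly, with a median ratio of 9.01 and a median transcript of 1181 bases. CFB, complement factor B of the alternative pathway, stood at 4.28 and 3.31 CPM in DMSO and 29.9 and 30.2 CPM in RB-1. It was the most abundant of the 8 in RB-1, and 45.5% of its exon bases lie in other genes of the same strand. One of these, C2, was under 1 CPM in every library. C15orf48, a small mitochondrial protein related to the respiratory subunit NDUFA4, was at 0.978 and 1.19 CPM against 12.8 and 10.2. IL32, an inflammatory cytokine, was at 0.633 and 0.980 CPM against 7.79 and 4.98, and S100P, a calcium-binding protein, at 0.403 and 0.689 against 7.21 and 3.81. Both were higher in RB-1 replicate 1 than in replicate 2. LCN2, a secreted protein that binds iron-carrying siderophores, had 0 and 18 counts in DMSO and 137 and 119 in RB-1. Its DMSO replicate 1 thus lay below 0.0863 CPM, the limit that a count of 0 allows there. The ratio of 15.3 fell to 7.64 without DMSO replicate 1. ICAM4, an adhesion protein of red cells that carries the Landsteiner-Wiener antigens, had 6 and 0 counts in DMSO and 131 and 124 in RB-1. Its ratio was 42.1, or 21.1 without DMSO replicate 2. All of its exon bases lie on the opposite strand of an unnamed transcript, and its nearest tested gene, ICAM1, lies 352 bases away and was 5.50-fold higher, so ICAM4 stays uncertain. EBI3, a subunit of interleukin 27, and VNN1, a pantetheinase, were lower and stood at 3.44 and 3.63 CPM and at 2.33 and 3.31 CPM in RB-1.

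The transcription and RNA group of 5 genes had the largest median ratio among groups of more than 3, 11.8. MAFF (ENSG00000185022), a small Maf factor that pairs with other leucine zipper proteins such as NRF2 and has no activation domain of its own, measured 12.6 and 9.54 CPM in DMSO and 135 and 119 CPM in RB-1. That was 11.5-fold, with the RB-1 libraries within 1.14-fold of each other. MED29, a subunit of the Mediator complex, was at 10.8 and 13.4 CPM against 62.5 and 72.3. ID4, a helix-loop-helix protein that cannot bind DNA and holds back its partners, had 8 and 8 counts in DMSO and 91 and 92 in RB-1, 11.8-fold. All 4 of its libraries agreed closely within their groups. KRBOX1, which carries a KRAB box, was at 6.62 and 3.81 CPM in RB-1 from 0.460 and 0.424. FAM133A had 2 and 7 counts in DMSO and 106 and 146 in RB-1. Its ratio of 29.7 came to 19.5 once DMSO replicate 1 was left out and to 62.7 once DMSO replicate 2 was, and reads may be shared with close copies of the gene.

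The promoters of some of these genes are shown because they hold short motifs known for stress and inflammatory factors. RefSeq (GRCh38.p14) gave a promoter, 250 bases before to 50 after the first listed start, for 51 of the 70 genes. The motifs searched on both strands were TGAGTCA (AP-1), TGACGTCA (the cyclic AMP response element, CRE), CACGTG (E-box), TGATGCAA and TGATGAAA (composites of ATF4 and CEBP), GGAATTTCC and GGACTTTCC (NF-kB) and TATAAA (the letters of the TATA box). Stretches of 4 promoters with 2 matches each are printed 5′ to 3′ on the gene's strand, with the matches in capitals. They lie at chr11:66568632-66568749 (CTSF, minus strand), chr16:3065262-3065363 (IL32, plus strand), chr22:38201778-38201967 (MAFF, plus strand) and chr4:6693735-6693875 (S100P, plus strand), all upstream of the start. The composite of S100P reads as the reverse complement, and no printed match overlaps another.
CTSF: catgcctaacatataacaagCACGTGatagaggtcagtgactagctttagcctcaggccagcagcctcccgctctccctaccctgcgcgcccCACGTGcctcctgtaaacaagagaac
IL32: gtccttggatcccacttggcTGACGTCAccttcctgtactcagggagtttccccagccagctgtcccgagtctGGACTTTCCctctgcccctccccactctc
MAFF: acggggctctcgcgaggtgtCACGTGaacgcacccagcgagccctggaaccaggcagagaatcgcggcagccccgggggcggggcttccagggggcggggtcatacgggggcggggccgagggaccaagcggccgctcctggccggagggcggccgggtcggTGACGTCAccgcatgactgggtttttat
S100P: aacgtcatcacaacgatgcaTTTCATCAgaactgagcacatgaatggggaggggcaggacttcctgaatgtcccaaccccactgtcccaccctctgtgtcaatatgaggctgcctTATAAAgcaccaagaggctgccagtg
The capitals mark a pair of E-boxes in CTSF, a CRE and an NF-kB motif in IL32, an E-box and a CRE in MAFF, and a composite and a TATA box in S100P. The E-box was held by 6 of the 51 promoters (11.8%), against 10.3% of the promoters of the expressed genes and 7.43% of all 27305. The CRE was held by 2 (3.92%), against 3.37% and 1.98%, and AP-1 by 1 (1.96%, EBI3), against 2.80% and 4.92%. The composites were held by 1 promoter each (1.96%, PRSS3 for TGATGCAA and S100P for TGATGAAA), against 0.478% and 0.372% of expressed genes and 0.923% and 1.10% of all. The NF-kB form GGACTTTCC was held by 1 (1.96%), against 0.382% and 0.374%, and GGAATTTCC by 0, against 0.456% and 0.472%. The TATA box was held, anywhere in the 300 bases, by 5 (9.80%), against 4.95% and 11.95%. These shares rest on 1 to 6 promoters each and are descriptions, and a match is not a site of binding. Only the exact letters given above were searched, so other forms of these motifs are neither marked nor counted. The median promoter had 64.7% G and C bases and 21 CpG pairs, against 65.7% and 27 among expressed genes.

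Lipid metabolism held 7 of the genes, with a median ratio of 7.70. G0S2 (ENSG00000123689), the inhibitor of the fat-splitting lipase ATGL, was at 89.5 and 62.1 CPM in DMSO and 454 and 359 CPM in RB-1, and so was the most abundant of all 70. Per kilobase of transcript it also led, with a mean of 470 CPM per kb in RB-1 and 87.5 in DMSO. LDAF1, which works with seipin where lipid droplets form, was at 9.17 and 6.04 CPM against 47.7 and 40.1. Its RB-1 libraries were within 1.19-fold. PXMP4, a membrane protein of peroxisomes, was 7.70-fold higher. PLTP, which moves phospholipids between lipoproteins, was at 0.748 and 0.689 CPM against 6.85 and 6.65, among the tightest values of the set. PLA2G4B, a cytosolic phospholipase, had 0 and 34 counts in DMSO and 179 and 213 in RB-1, but 75.6% of its exon bases lie in other genes. Of these, the readthrough gene JMJD7-PLA2G4B went the other way, at 4.17 and 1.83 CPM in DMSO and 0.776 and 0 in RB-1, so how reads were divided between them cannot be told. HSD17B8, an enzyme of mitochondrial fatty acid synthesis, was the least abundant, at 4.10 and 2.20 CPM in RB-1.

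Another 6 genes were grouped as other enzymes. TMEM14C, which carries the heme precursor protoporphyrinogen into the mitochondrial matrix and was placed here for that step, stood at 45.8 and 32.7 CPM in DMSO and 338 and 187 CPM in RB-1. At 223 CPM per kb in RB-1 it came next after G0S2 on that scale, and RB-1 replicate 1 was 1.81 times replicate 2. TSTD1, a small thiosulfate sulfurtransferase with the shortest transcript of the 70 (574 bases), was at 1.64 and 1.30 CPM against 20.3 and 10.6, again higher in replicate 1. NOXA1, the activator of the NADPH oxidase NOX1, was 5.60-fold higher and PIGZ, a mannosyltransferase of membrane anchors, 4.94-fold. AS3MT, which methylates arsenic, was 7.88-fold higher with RB-1 libraries of 11.97 and 12.1 CPM, and 96.8% of its exon bases lie in a readthrough gene listed at 0 counts in all 4 libraries. Its nearest other tested gene, BORCS7, was 3.15-fold higher. AKR1E2, an aldo-keto reductase, was the least abundant of the 6, at 2.88 and 3.37 CPM in RB-1.

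Beside BEST1, the channels and transporters were SLC37A2, SLC22A18, CNIH3, SLC16A9 and ANO7, a group of 6 with a median ratio of 7.86. SLC37A2, a sugar phosphate carrier of the endoplasmic reticulum, was at 29.1 and 21.8 CPM in DMSO and 162 and 143 CPM in RB-1. CNIH3, an auxiliary subunit of AMPA receptors, was at 2.79 and 1.09 CPM against 22.2 and 19.3. The DMSO libraries of CNIH3 were 2.57-fold apart, and its ratio was 7.43 without DMSO replicate 2 and 19.1 without DMSO replicate 1. SLC22A18 stood at 21.9 and 20.02 CPM in RB-1 and 5.00 and 3.31 in DMSO. SLC16A9, of the monocarboxylate transporter family, was at 8.31 and 6.71 CPM in RB-1. ANO7, of the anoctamin family, was the least abundant at 2.61 and 2.81 CPM.

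Proteases and their inhibitors made up 4 of the genes. CTSF, the lysosomal cysteine protease cathepsin F, was at 7.59 and 7.15 CPM in DMSO and 47.5 and 40.6 CPM in RB-1, 5.98-fold. CST4, a secreted inhibitor of such proteases, was at 0.719 and 1.59 CPM against 14.1 and 13.3. Its ratio of 11.9 became 19.1 without DMSO replicate 2, and close copies of CST4 and of PRSS3, the trypsin that resists inhibitors, make both uncertain. PRSS3 was 4.87-fold and PRSS27, another serine protease, 6.53-fold higher.

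Peptides, receptors and signalling proteins were a group of 9 with a median ratio of 6.47. The peptide hormone ADM2, a known target of ATF4, was at 5.81 and 4.66 CPM in DMSO and 24.8 and 26.2 CPM in RB-1. PTPRH, a receptor tyrosine phosphatase, was at 0.834 and 0.874 CPM against 8.45 and 11.2, the largest ratio of the 9 at 11.5. P2RY11, a receptor for ATP, was at 1.09 and 2.62 CPM against 12.2 and 11.8. The ratio of 6.47 became 10.997 without DMSO replicate 2, and 59.2% of its exon bases lie in other genes, among them PPAN-P2RY11 at 27.1 to 34.6 CPM in all 4 libraries. PIP5KL1 was 4.86-fold and NIM1K, a protein kinase, 6.99-fold higher. The group also held the adaptor GRB7, the peptide NMB, the nociceptin receptor OPRL1 and KNDC1, all under 5 CPM in both RB-1 libraries.

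Proteins of endocytosis, vesicles and the matrix were a group of 6 with PHETA2 at its head by ratio. MEGF6, a protein of many EGF-like repeats, was at 2.30 and 2.68 CPM in DMSO and 29.7 and 22.7 CPM in RB-1, 10.5-fold. FBLN7, a fibulin of the matrix, was at 1.73 and 1.83 CPM against 8.65 and 14.8. It was 1 of only 2 genes among the 70 in which RB-1 replicate 2 exceeded replicate 1 by more than 1.5-fold, the other being an unnamed readthrough gene. RIMS3, a protein of synaptic vesicle release, has the longest transcript of the 70 (7235 bases) and was 6.07-fold higher. FCHO1, which starts clathrin-coated pits, was 4.99-fold higher. Of 4 genes of the cilium, sperm and nuclear envelope, SPAG4, a SUN-domain protein of the nuclear envelope, was the most abundant, at 38.6 and 34.3 CPM in RB-1 and 5.61 and 4.82 in DMSO. CYS1, a protein of the primary cilium, was 8.85-fold higher. CDK20, a kinase that regulates cilia, had 2 and 11 counts in DMSO and 102 and 74 in RB-1. Its ratio of 14.3 was 8.57 without DMSO replicate 1 and 43.4 without DMSO replicate 2. MORN3, known from sperm, was 7.01-fold higher, or 10.7-fold without DMSO replicate 2. The F-box proteins FBXO2 and FBXO36, which choose targets of ubiquitin ligases, were 4.98-fold and 4.12-fold higher.

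A further 10 genes encode proteins of little known function, most of them small. SMIM14 and SMIM29, small membrane proteins, were at 89.5 and 84.7 CPM and at 82.1 and 67.2 CPM in RB-1, from 14.2 and 11.4 and from 12.1 and 10.2 CPM in DMSO. In both genes the ratio was close to 7, at 6.81 and 6.71, although their transcripts of 6483 and 1186 bases differ widely. TMEM35B was 8.02-fold higher, with 95.7% of its exon bases in other transcripts of the same strand, and TMEM171 was 5.01-fold higher. YPEL1 was at 1.93 and 0.795 CPM in DMSO and 11.6 and 8.88 CPM in RB-1. Its ratio of 7.53 was 12.9 without DMSO replicate 1, and 52.5% of its exon bases lie opposite PPIL2, at 32.4 to 45.8 CPM. SHISAL1 and ERICH2 were 7.63-fold and 5.81-fold higher, with transcripts of 6751 and 601 bases. KLHDC9, VSTM5 and RIPOR3 were each under 5 CPM in both RB-1 libraries.

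The last 3 genes have no symbol, and all their transcripts in GENCODE 29 are readthrough transcripts that join neighbouring genes, so the rule on joined symbols did not reach them. ENSG00000256646, which joins C7orf25 and PSMA2, had 4 and 0 counts in DMSO and 383 and 575 in RB-1. Its ratio of 239, the largest of the 70, was 119 without DMSO replicate 2. The parts moved less, with C7orf25 at 0.929-fold and PSMA2, a proteasome subunit, at 2.74-fold. ENSG00000284292, of ARPC1A, ARPC1B and PDAP1, was at 1.84 and 1.99 CPM in DMSO and 59.6 and 22.4 CPM in RB-1, and its ratio of 21.4 was 11.7 without RB-1 replicate 1. ENSG00000259171, of RNASE4 and ANG, was 7.52-fold higher, beside 2.78-fold for RNASE4 and 4.15-fold for ANG. Other genes cover 90.2% of the exon bases of ENSG00000256646, 92.1% of those of ENSG00000284292 and 100% of those of ENSG00000259171. How reads were divided between them cannot be told, so all 3 ratios stay uncertain. Without these 3 the set had 67 genes and a median ratio of 6.99. In all, 14 of the 70 genes, these 3 included, shared more than 10% of their exon bases with another gene, against 2420 of 11530 expressed genes (20.99%). Leaving out all 14 left 56 genes with a median ratio of 6.76.

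**Figure D2:**
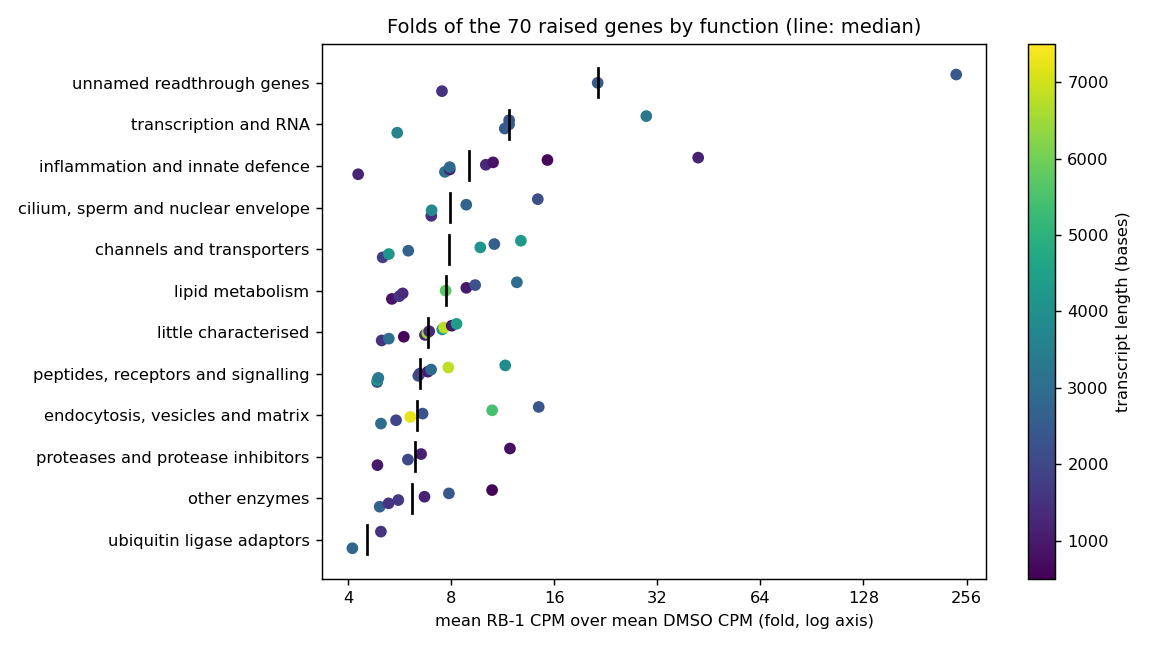
Ratio of mean RB-1 CPM to mean DMSO CPM (log axis) for each of the 70 genes, 1 point per gene, in the 12 function groups that were assigned by hand, with the group median as a bar and transcript length as colour. The medians run from 4.55 in the F-box pair to 21.4 in the unnamed readthrough genes, and short and long transcripts are mixed along the axis.

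The 70 genes had shorter and more GC-rich transcripts than expressed genes at large. For each gene the length is that of 1 GENCODE 29 transcript, the one with the longest coding sequence. The median was 2318 bases (574 to 7235), against 3129 among the 11530 expressed genes with a transcript, whose outer quartiles began at 1997 and 4832 bases. The coding part was shorter still by comparison, with medians of 879 and 1425 bases, and 41 of the 70 (58.6%) had no coding sequence over 1 kb against 30.7% of expressed genes. The median number of exons was 6 against 9, and the median gene spanned 17231 bases of the genome against 33357. The share of G and C bases had medians of 57.9% and 49.1%.

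Counted by quartiles of length of the expressed genes, from shortest to longest, 29, 24, 11 and 6 of the 70 fell in each. These were 1.01%, 0.833%, 0.382% and 0.208% of the quartile. The share of 0.737% before names were left out counts 85 of 11534 genes and not the 70, so it lies above the like share. By quartiles of GC content, from lowest to highest, the numbers were 8, 7, 17 and 38, or 0.277%, 0.243%, 0.590% and 1.32%. The properties go together, so both were split at their medians. Shorter and GC-rich genes held 41 of the 70 in 3532 genes (1.16%), and longer and GC-poor genes 3 in 3533 (0.0849%). The mixed classes lay between, with 14 of 2233 longer GC-rich genes (0.627%) and 12 of 2232 shorter GC-poor genes (0.538%). The mirror image of the rule, with each DMSO value at least 2 CPM and at least 4 times each RB-1 value, took 111 genes with a median transcript of 5565 bases and 43.0% G and C.

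Trends in length and GC content ran through all genes and between replicates. The median log2 ratio of mean RB-1 to mean DMSO CPM was 0.68, 0.35, 0.11 and -0.21 from the shortest to the longest quartile. The median log2 ratio of RB-1 replicate 1 to RB-1 replicate 2 was 0.25, 0.04, -0.14 and -0.39 along the same quartiles, and that of the DMSO libraries 0.26, 0.24, 0.30 and 0.38. So the RB-1 libraries differed from each other along length in the same direction as RB-1 from DMSO, and the DMSO libraries did not. Across 11529 expressed genes, which share the 4 libraries and are not independent replicates, Spearman's rho of the RB-1 to DMSO ratio was -0.41 with length and 0.32 with GC content. For RB-1 replicate 1 over replicate 2 it was -0.49 with length and 0.55 with GC content. For DMSO replicate 1 over replicate 2, across 11522 genes, it was 0.11 with length and -0.35 with GC content, so the DMSO libraries also differed along GC content, in the opposite direction. With a smooth trend in length taken out of each library the rule took 62 genes, of which 50 are among the 70, with a median transcript of 2977 bases. With trends in both length and GC content removed it took 59, of which 44 are among the 70, with a median of 2985. The part of the libraries in the lengths of the 70 was not tested further.

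**Figure D3:**
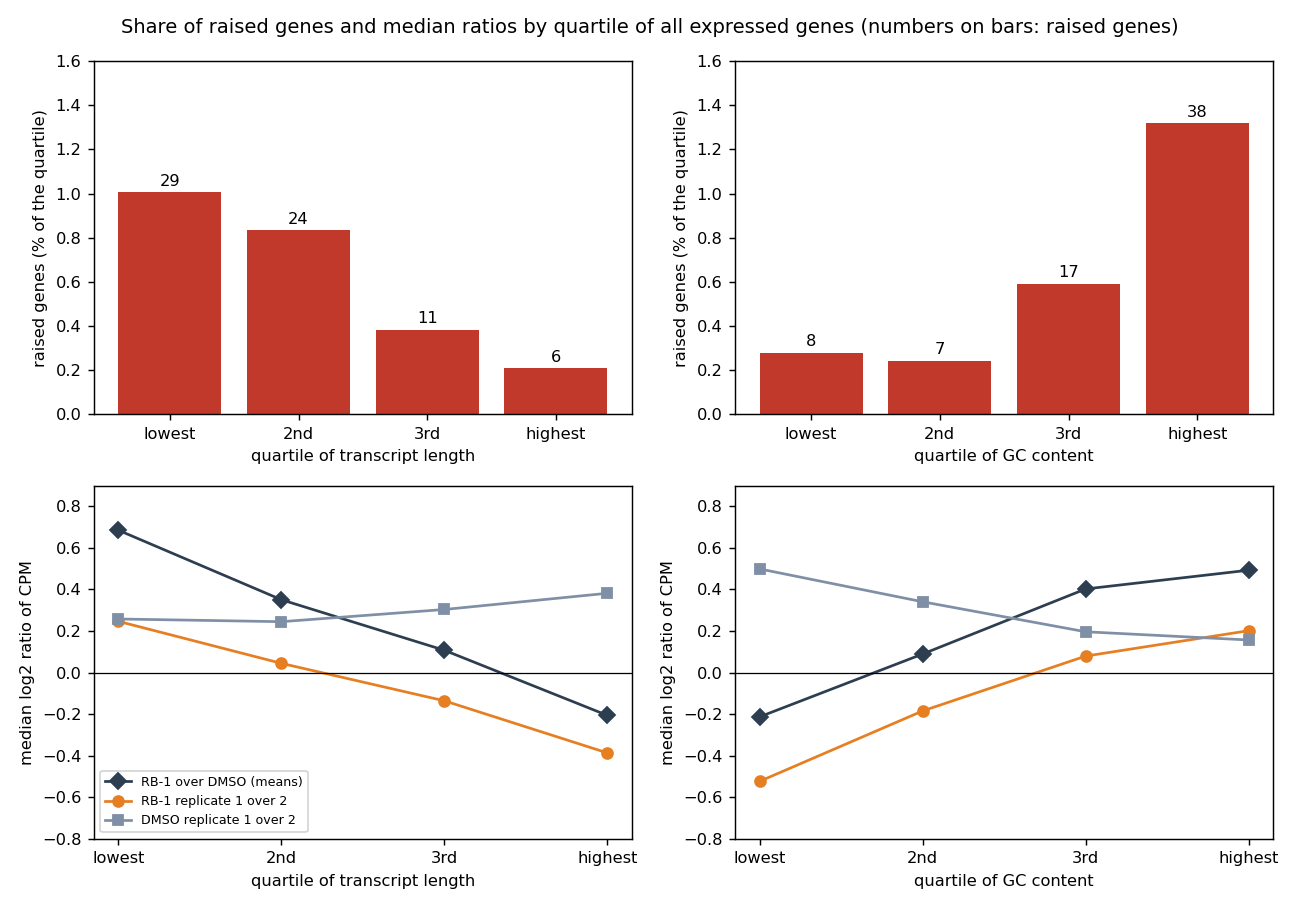
Upper panels: share of the expressed genes of each quartile of transcript length (left) and GC content (right) that belongs to the 70, in percent, with the number of genes on each bar. Lower panels: median log2 ratio of CPM in the same quartiles for RB-1 over DMSO means and for the replicate pairs of each group. The shares fall from 1.01% to 0.208% along length and rise from 0.277% to 1.32% along GC content, and the RB-1 replicate line slopes the same way as the RB-1 to DMSO line.

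**Figure D4:**
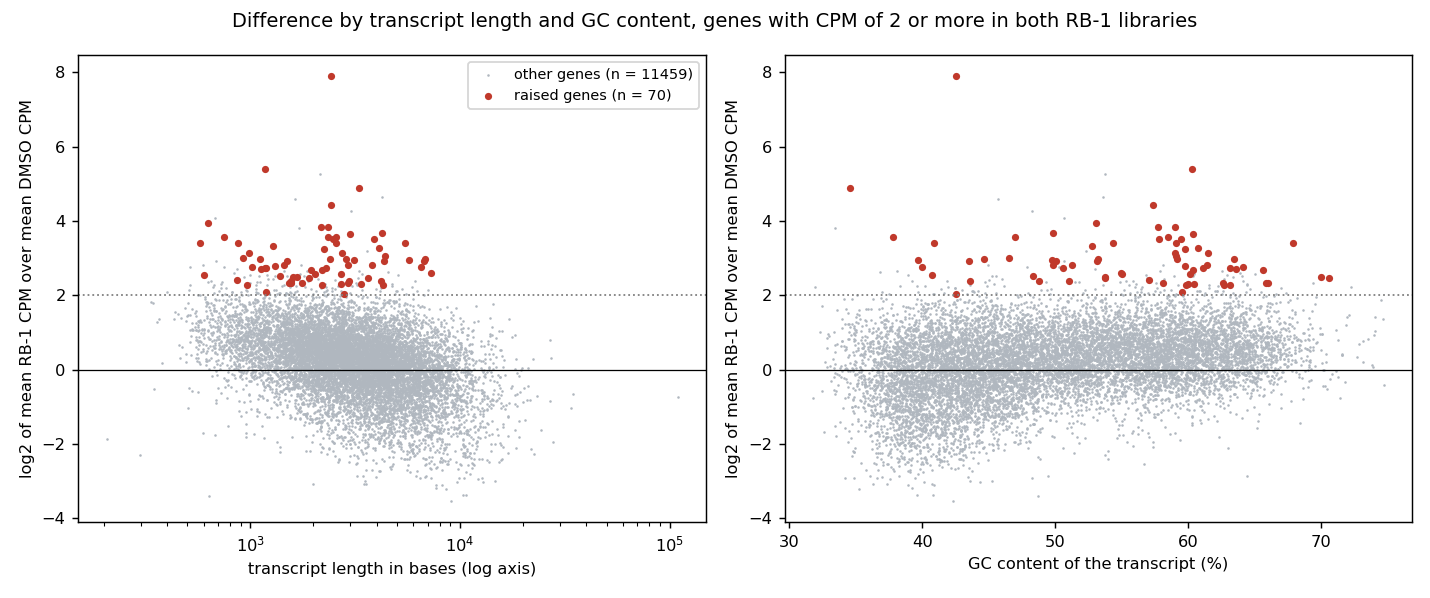
Log2 ratio of mean RB-1 to mean DMSO CPM against transcript length (left, log axis) and GC content (right) for genes with 2 CPM or more in both RB-1 libraries. The 70 genes are red and the other genes grey, and the dotted line is a ratio of 4. The grey cloud slopes down with length and up with GC content, and grey points above the line failed the limit in at least 1 pair or were left out by name.

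To see whether other genes of the same functions moved, 14 lists of 418 genes were tested, with the 70 left out, by edgeR's quasi-likelihood test over all 13612 genes that passed its count filter (adjusted p under 0.05). At this threshold 1702 genes, or 12.5%, were higher in RB-1 and 2149, or 15.8%, were lower. Of 359 tested list genes 124 (34.5%) were higher and 24 (6.69%) lower. The 124 include DDIT4, GDF15 and VEGFA, which passed the 4-fold rule themselves and were kept out of the 70 only by name. The number of higher list genes was 67 without DMSO replicate 1, 41 without DMSO replicate 2, 59 without RB-1 replicate 1 and 134 without RB-1 replicate 2. Numbers without 1 library are given below in this order, and where a list holds few genes they rest on few calls. The lists were chosen with results of these data known, so their counts are descriptions. Each list's median log2 fold change is set beside 0.01, the median of all tested genes.

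Lists near PHETA2 and BEST1 were mixed. Of 29 endosome and Golgi trafficking genes 3 rose, 5 fell and 21 did not pass (median -0.19). EEA1, a tether of early endosomes, fell from 101 and 79.2 CPM to 9.53 and 14.4 (log2 fold change -3.11 ± 0.31 SE, edgeR adjusted p = 0.000251), and the clathrin heavy chain CLTC fell from 547 and 366 CPM to 140 and 201. Of 22 anion channel genes 2 rose and 4 fell (median -0.43), but the balance turned with the scaling, to 3 higher and 0 lower on library totals alone and 3 higher and 2 lower with the length trend removed. CLIC1 rose from 596 and 601 CPM to 1548 and 1287 (1.05 ± 0.24, edgeR adjusted p = 0.0100), and LRRC8D, a subunit of volume-regulated channels, fell by 1.05 on the log2 scale. Without 1 library the higher anion channel genes numbered 0, 1, 0 and 2 and the lower ones 1, 0, 1 and 6. The iron and heme list, tested because of LCN2, had 4 of 20 higher and 2 lower (median 0.34). BLVRB, a biliverdin reductase, rose from 16.5 and 15.8 CPM to 122 and 59.5, and TFRC, the transferrin receptor that imports iron, fell from 717 and 302 CPM to 163 and 160. Without 1 library 3, 1, 3 and 5 iron and heme genes were higher and 1, 1, 0 and 3 lower. Of 8 metallothionein and zinc genes (median 0.77) 4 rose and 1 fell, among them MT1X, which rose by 1.32 ± 0.27 on the log2 scale, and MT1E, by 1.42 ± 0.30. Without 1 library 2, 1, 2 and 4 were higher.

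In each list near MAFF and the inflammatory genes most genes did not pass. More rose than fell in each, narrowly so for AP-1 and early response. Of 30 AP-1 and early response genes (median 0.18) 4 rose and 3 fell, with IER3 at 111 and 167 CPM against 389 and 380 and the phosphatase DUSP5 at 137 and 143 against 334 and 317. Without 1 library 2, 2, 1 and 3 were higher and 5, 0, 0 and 0 lower, and with trends in length and GC content removed 4 were higher and 6 lower. Of 25 NF-kB feedback genes and targets (median 0.54) 7 rose and 1 fell, with CD82 (log2 fold change 1.79 ± 0.29) and the kinase IRAK2 (1.42 ± 0.29) of smallest p. Without 1 library 3, 2, 5 and 7 were higher. Of 26 cytokines and growth factors 5 rose and 2 fell (median 0.48). The activin subunit INHBB fell from 37.4 and 36.5 CPM to 7.01 and 5.74, and the EGF receptor ligand TGFA rose from 41.8 and 30.5 CPM to 131 and 126. Without 1 library 1, 4, 1 and 3 were higher. Around S100P, 6 of 18 epithelial genes (median 0.73) rose and 1 fell, with the tight junction protein CLDN4 at 50.7 and 40.1 CPM against 229 and 164 and the scaffold TJP1 at 189 and 183 against 35.1 and 49.6. Without 1 library 2, 3, 4 and 8 epithelial genes were higher.

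The integrated stress response list, to which ADM2 belongs, had 19 of 28 genes higher and 0 lower (median 0.99). The smallest p were those of DDIT4, an inhibitor of mTORC1, and GDF15, a stress cytokine, which both passed the 4-fold limit and were left out by name. Their log2 fold changes were 2.60 ± 0.27 (edgeR adjusted p = 0.000307) and 2.33 ± 0.31 (edgeR adjusted p = 0.000888). At an unadjusted p under 0.05 edgeR put 1 gene of the list lower, DESeq2 called 1 lower and limma-voom 0. Without 1 library 10, 10, 12 and 18 were higher. Of 27 hypoxia targets (median 1.07) 15 rose and 1 fell, led by VEGFA, the vascular growth factor left out by name, and BNIP3, a mitophagy receptor at 254 and 252 CPM in DMSO and 1087 and 881 in RB-1. Without 1 library 9, 8, 11 and 12 were higher. Of 28 p53 targets (median 0.36) 10 rose and 4 fell, with PERP (1.51 ± 0.23) and PMAIP1 (1.55 ± 0.26) of smallest p, and without 1 library 5, 3, 6 and 9 were higher and 3, 1, 1 and 3 lower.

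Short housekeeping transcripts were tested as a comparison by length. Of 38 small respiratory chain subunits, with a median transcript of 785 bases, 20 rose and 0 fell (median log2 fold change 0.91). NDUFB4 went from 21.4 and 14.4 CPM to 96.1 and 52.7, and UQCR11 from 52.5 and 31.1 CPM to 158 and 115. Of 43 cytosolic ribosomal proteins, with a median transcript of 907 bases and a median log2 fold change of 1.02, 25 rose and 0 fell, RPS16 from 235 and 168 CPM to 742 and 478 and RPL29 from 257 and 171 CPM to 801 and 511. In these 4 genes RB-1 replicate 1 was above replicate 2, and the calls turned on single libraries. Without 1 library 12, 1, 4 and 25 respiratory and 15, 3, 8 and 30 ribosomal genes were higher. With the length trend removed, 10 respiratory genes were higher and 2 lower, and 11 ribosomal genes were higher and 2 lower. The histones, with a median transcript of 1132 bases and a median log2 fold change of 0.02, had 2 of 21 higher, the linker histone H1-2 (1.15 ± 0.35) and H2AZ1 (1.23 ± 0.37), and 0 lower. Without 1 library 1, 0, 0 and 5 histone genes were higher, and with the length trend removed 0 were higher and 2 lower. Without that removal, edgeR put 0 genes of all 3 lists lower at an unadjusted p under 0.05, and DESeq2 and limma-voom called 0 lower.

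**Figure D5:**
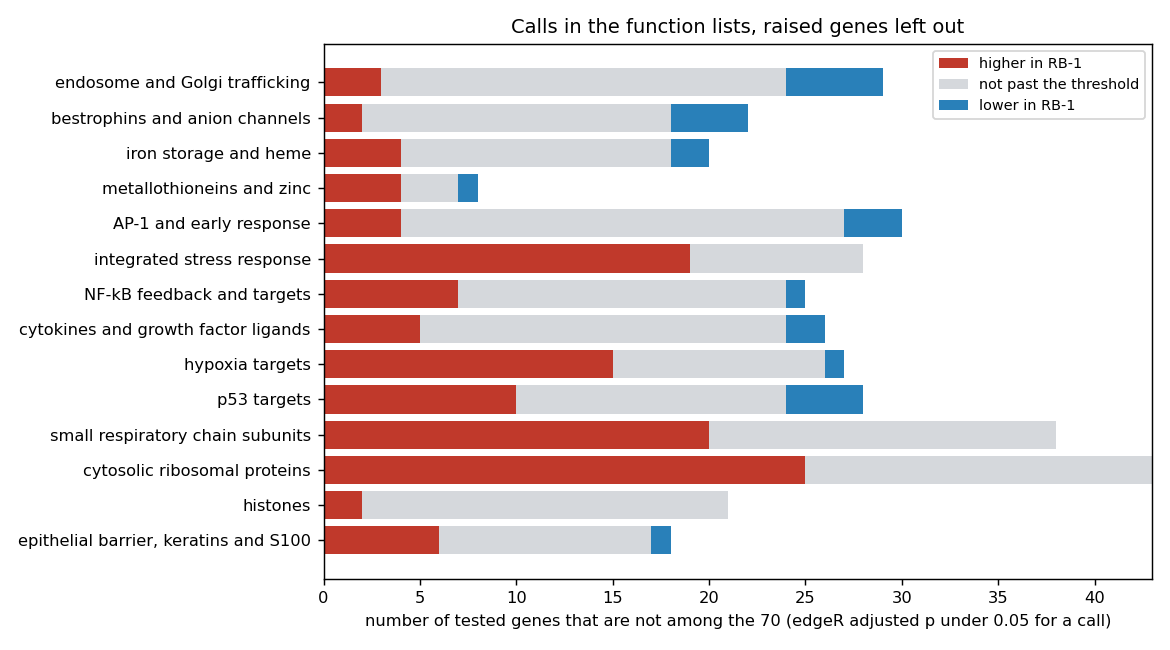
Number of tested genes in each of the 14 function lists, the 70 genes left out, that were higher (red) or lower (blue) in RB-1 or did not pass (grey) by edgeR's quasi-likelihood test at an adjusted p under 0.05. The red part is 25 of 43 for ribosomal proteins, 20 of 38 for respiratory subunits and 19 of 28 for the integrated stress response. Blue exceeds red for endosome and Golgi trafficking (5 and 3 of 29), as lower exceeds higher over all tested genes (15.8% and 12.5%). Blue also exceeds red for anion channels on this scaling, but not on library totals or with the length trend removed.

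The genes beside the 70 on the chromosomes were compared as well, using for each the nearest tested gene that shares no exon base with it. Of these 70 neighbours 15 (21.4%) were higher and 10 (14.3%) lower, against 12.9% and 15.2% for the nearest tested gene of any tested gene. The median log2 fold change of the neighbours was 0.33, against 0.03. Neighbours of larger change included ADAM8, 3.98-fold higher beside KNDC1, and VNN2, 3.63-fold higher beside VNN1. They were picked after their values were seen. In the other direction, the lowest ratios among neighbours called lower were 0.260 for NPIPB3 beside LDAF1 and 0.363 for DIAPH2 beside FAM133A.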

How the data were processed

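The authors deposited raw read counts per gene for 20263 human Ensembl IDs in 4 libraries, 2 of DMSO and 2 of RB-1 (24 h), prepared from total RNA with an mRNA kit per the labels' protocols. The aligner, counting tool and strandedness were not given in the sources used here. Mouse builds (GRCm38 and mm10) stand in the submitters' processing notes although all IDs are human, so no coordinates of the counted genes are given. Symbols matched 20148 IDs, and lengths, GC content and overlaps came from GENCODE 29 (20224 IDs), using for each gene the basic transcript with the longest coding sequence.

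CPM is the count per 1000000 counts of the library total, and the genes were chosen on it by the rule given above. The members, function groups and gene lists were chosen with earlier results of these data known, and the function groups were assigned by hand after the members were seen. Named are PHETA2 and BEST1, the most abundant members, those with the largest, smallest or least even ratios, the shortest and longest, up to 5 members per function group, and in each list the 2 genes with the smallest p. Members named beyond this rule complete their groups and were chosen after their values were seen. One member is counted in the totals but not reported here by name.

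All genes were tested with edgeR 4.0.16 (R 4.3.3): filterByExpr, TMM factors (0.868 to 1.10), a robust quasi-likelihood F test, two-sided, Benjamini-Hochberg adjustment. The fit had 2 residual degrees of freedom, a common biological coefficient of variation of 0.251, and was tested on simulated data. Standard errors (SE) are the log2 fold change over the square root of F. On library totals the median log2 fold change lies 0.20 above that on TMM factors. Replicate libraries differed beyond sampling noise (chi-square per degree of freedom 256.6 for DMSO and 128.0 for RB-1). Limits at 0 counts are 3 counts per library and cover counting error only, since reads without molecular identifiers are not independent molecules. Alternatives were other scalings, count minimums, DESeq2 1.42.0, limma-voom (limma 3.58.1), trends in length and GC content (lowess) and leaving out each library.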

Additional observations from a re-analysis of the deposited data

How the results depend on the processing

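The number of genes past the rule was 50 with TMM factors, 47 with DESeq2 size factors and 60 with upper-quartile factors, all of them among the 70. A minimum of 5 CPM left 44 and of 10 CPM left 29, and a ratio of 4 between group means alone gave 187. Leaving out a library gave 102 to 201 genes (195 without DMSO replicate 1, 109 without DMSO replicate 2, 102 without RB-1 replicate 1 and 201 without RB-1 replicate 2), since fewer pairs make the rule looser. The median ratio of 7.0 was 6.13 with TMM factors, 5.91 with the length trend removed and 6.17 with length and GC removed, and 6.55 to 7.39 with a library left out. The median length of 2318 bases was 2977 and 2985 with those trends removed and 1600 to 2374 with a library left out (1600 without RB-1 replicate 2). The ratio of median lengths, members over expressed genes, of 0.741 was 0.617 for coding length and 0.517 for gene span. Over all genes, 1702 higher calls became 383 to 1934 and 2149 lower calls 1091 to 2413 with a library left out, and library totals alone gave 1381 lower beside 2015 higher. The 124 higher list genes became 41 to 134 and the 24 lower ones 10 to 22, or 12 lower on library totals and 38 with length and GC removed. The cause of these changes was not tested beyond what each setting removes. For the 58 members named by the rule, 287 ratios under alternatives included 25 beyond the replicate spread, 0 reversed, and the lowest was 3.57. The rule fixes much of this outcome. Each pair ratio of a member is at least 4, so leaving out a library could not take a ratio under 4. TMM factors of 0.868 to 1.10 could not reverse one. The spread came from the same library pairs, so these counts are no check of the ratios.

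Whether the replicate numbers pair the samples is not stated in the labels. The correlation of same-numbered deviations was -0.11, which cannot settle the question. The replicate differences ran in opposite directions along GC content, with a Spearman's rho of 0.55 in RB-1 and -0.35 in DMSO. With same-numbered pairs only (a replicate block) 104 genes passed the rule, and the edgeR fit with the replicate block called 1721 higher and 2289 lower, 131 and 26 in the lists. With crossed numbers, chosen after seeing the data, as was the removal of length and GC together, the calls were 1813 and 2418. Depth limits the ratios of the 10 members with fewer than 30 DMSO counts.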
